A study of Mus musculus with 4 samples.

Results

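The spots described here were those richest in Scgb1a1 and Scgb3a2, the secretoglobin transcripts by which club cells of the airway epithelium are usually recognised, in lung sections of mice that were vaped (V) or not (NV). They were chosen by a share: among spots with at least 2000 unique molecular identifiers (UMIs, each counting 1 captured mRNA molecule), the UMIs of both genes were divided by all UMIs of the spot, and the highest 5% of spots in each section were taken. This gave 231 of 4632 spots, of which 39 came from the NV male (781 spots), 22 from the NV female (436), 74 from the V male (1489) and 96 from the V female (1926). The other 4401 spots of the same sections served for comparison.

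The series holds 1 cryosection of the upper pulmonary branches from each of 4 C57BL/6J mice, 1 male and 1 female per group, profiled on Visium slides. The V mice had inhaled vapor of Peach Ice vape juice from JUUL pens in whole body chambers for 4 h per day, 5 days per week and 9 weeks, starting at 6 to 8 weeks of age. The NV mice were the controls without vapor. With 1 section a mouse and 2 mice a group, the spread between mice includes the piece of lung that each section happened to cut. The tests below pool their estimate of that spread over genes. A small p-value can therefore stand beside mice of a group that disagree for the gene.

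Club cells are dome-shaped secretory cells that line the conducting airways of the mouse down to the terminal bronchioles. They release secretoglobins and antimicrobial proteins into the airway lining fluid, carry much of the cytochrome P450 activity by which the lung handles inhaled chemicals, and renew themselves and the neighbouring ciliated cells. In proximal airways they stand among ciliated, basal and goblet cells. A spot covers several cells, so none of the chosen spots is a pure sample of any of these.

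The same 5% rule selected very different spots in the 4 sections. The chosen spots of the NV male held between 1.64% and 40.1% secretoglobin UMIs (median 2.93%), and the first spot left out held 1.62%. Those of the V female ranged from 2.63% to 31.9% (median 5.58%), with 2.62% in the first spot left out. In these 2 sections every chosen spot was above 1%, 39 of 39 and 96 of 96. In the NV female, the lowest chosen spot held 0.229%, the median was 0.258% and the first spot outside had 0.227%. There, 2 spots reached 38.1% and 34.2%, and the remaining 20 held at most 0.352%. In the V male, the chosen spots ranged from 0.0766% to 0.969% (median 0.0967%), the first spot left out had 0.0764%, and none exceeded 1%. The lowest chosen spots carried as few as 6 secretoglobin UMIs (NV female) and 2 (V male).

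**Figure D1:**
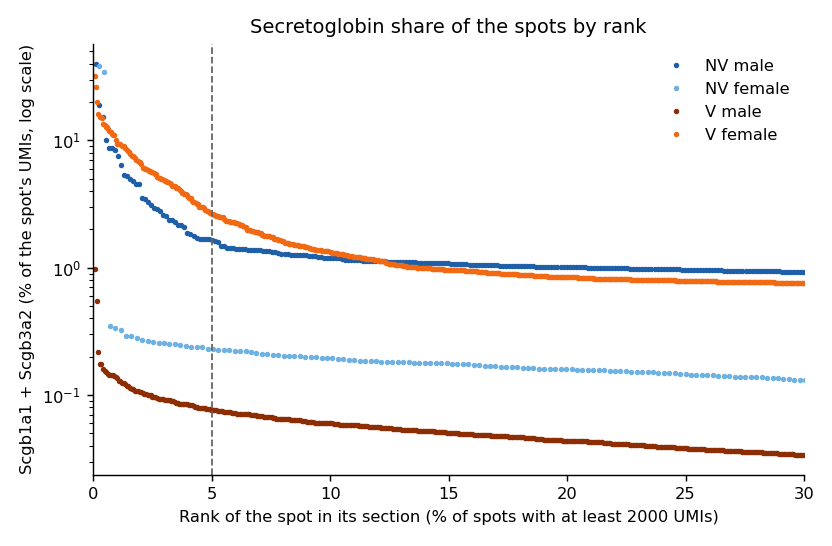
Share of Scgb1a1 and Scgb3a2 among the UMIs of each spot (log scale, %) against the rank of the spot within its section, for the highest 30% of spots with at least 2000 UMIs; the dashed line marks the 5% that was chosen. The V female and NV male curves stay above 1.6% up to the line, 2 NV female spots stand alone above 34% and the V male curve starts at 0.969%.

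Summed over the chosen spots of a section, Scgb1a1 had 105319 counts per 1e6 UMIs (CPM) for the NV male, 50161 for the NV female, 1174 for the V male and 72396 for the V female, compared to 6978, 945, 223 and 6372 CPM in the other spots. Scgb3a2, a secretoglobin of the bronchial and bronchiolar lining, had 1972, 2556, 49.3 and 8539.6 CPM in the chosen spots and 96.6, 26.0, 1.33 and 546 CPM elsewhere. Since both genes chose the spots, these levels are a description and were not tested. Scgb3a2 was absent from 66 of the 74 chosen V male spots and 12 of the 22 chosen NV female spots, whereas 0 of 39 NV male and 1 of 96 V female spots lacked it. A single threshold for the pooled sections (1.39%) would have taken 50, 2, 0 and 180 spots in the same order of sections.

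Airway genes that the rule did not use were found in the chosen spots of the NV male and the V female, and in the other 2 sections mainly in the 2 spots with the highest share. In the NV female, the 2 top spots (22663 UMIs) held 197 of the 204 UMIs of Cyp2f2, the cytochrome P450 that club cells are known for, 46 of 47 UMIs of Cyp2a5, 242 of 255 of Scgb3a1 and 12 of 13 of Foxj1, the transcription factor of multiciliated cells. The remaining 20 spots (141648 UMIs) held 3663 UMIs of Sftpc, the surfactant protein of alveolar type 2 cells, against 65 in the top 2. In the V male, the top 2 spots held 47 of 58 UMIs of Bpifa1 and 25 of 31 of Scgb3a1, both secreted airway proteins (4233 and 2252 CPM, against 25.3 and 13.8 CPM in the remaining 72 spots), whereas these 72 spots held 14 of 18 Cyp2f2 UMIs among 19365 Sftpc UMIs, and Foxj1 was not counted in any chosen V male spot. Airway epithelium was therefore not borne out as the label of 20 chosen NV female spots and of 72 chosen V male spots, and counts of called genes are given with and without the V male, without the 2 top NV female spots, and for the NV male and V female alone.

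The sections held 473 to 2053 spots and 6957392 to 34308556 UMIs, the fewest in the NV female and the most in the V female. Chosen spots had median depths of 10876 (NV male), 6378 (NV female), 5742.5 (V male) and 19704 UMIs (V female), compared to 10167, 11334, 6552 and 11949 in the other spots. Xist and the Y-linked Ddx3y matched the labelled sex in 4 of 4 sections. Pairs of sections shared 277 to 1167 spot barcodes, as slides carry the same barcode set, and chosen spots of different sections shared 0 barcodes except for 6 between the V male and V female.

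The first comparison asked what else sets the chosen spots apart from the rest of their section. UMIs were summed over chosen and over other spots of each section, and both sums were compared within sections by edgeR's quasi-likelihood test, and a gene was called where the p adjusted by Benjamini and Hochberg's method was under 0.05 and the log2 fold change beyond 0.25 either way. Most tested genes of club cells, ciliated cells and airway secretions were higher in the chosen spots, as were some enzymes of aldehyde and drug metabolism, and most tested genes of cardiac muscle and brown fat were lower. Of 13143 genes tested, 334 (2.54%) were higher and 239 (1.82%) lower. Without the V male, 567 of 13274 were higher (4.27%) and 358 lower (2.7%). Without the V female, the deepest section, 41 of 12609 (0.325%) were higher and 97 (0.769%) lower. The NV male and V female alone gave 852 (6.09%) and 440 (3.14%) of 13998. Without the 2 top NV female spots the counts were 232 (1.77%) and 203 (1.55%) of 13083. A filter on low counts decided which genes were tested. Genes near 0 in 1 class of spots passed it only through the class where they were high. The shares of tested list genes called higher or lower are therefore partly set by this filter. In sums of mixed spots, fewer cells of a type and less RNA per cell cannot be told apart.

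Of 25 other club cell genes, 24 were tested, 18 were higher in the chosen spots, 0 were lower, and the median log2 fold change was 1.27 against -0.03 over all genes tested. Without the V male, 20 of 24 were higher. Without the V female, 11 of 22 were higher, and without the 2 top NV female spots 14 of 22. Cyp2f2 had 2254 (NV male), 1242 (NV female), 40.3 (V male) and 6231 CPM (V female) in the chosen spots, against 144, 72.1, 23.1 and 573 CPM in the other spots. It was higher in 4 of 4 sections and least so in the V male, but the 20 NV female spots other than the top 2 had 49.4 CPM, below the other spots of that section. Its log2 fold change was 3.39 ± 0.26 (SE; edgeR, adjusted p = 2.3e-10), 3.82 without the V male and 2.63 ± 0.38 without the 2 top NV female spots (adjusted p = 2.7e-05). Cyp2a5, a further P450 of airway epithelium that shares nearly identical sequence with Cyp2a4, so that reads may be split between both, changed the most of the genes at 10 CPM or above. It had 119, 286, 8.96 and 3013 CPM in the chosen spots (NV male, NV female, V male, V female) and 8.29, 4.44, 0.707 and 164 CPM elsewhere, with a log2 fold change of 4.43 ± 0.23 (edgeR, adjusted p = 1.7e-14). The V male value rested on 4 UMIs, and the 20 NV female spots other than the top 2 had 1 UMI (7.06 CPM). Without the 2 top spots, the log2 fold change was 3.88 ± 0.25.

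Abundant club cell genes changed less. Cbr2, a carbonyl reductase, had 6092, 3189, 3665 and 7418 CPM in the chosen spots and 2417, 1530.1, 3405 and 2557 CPM in the other spots, in the same order of sections. Its log2 fold change was 1.01 ± 0.17 (edgeR, adjusted p = 0.00021), with nearly equal levels in both classes of V male spots. Hp, which encodes haptoglobin, had 1098, 517, 197 and 540.4 CPM in the chosen spots against 222, 312, 164 and 266 CPM (log2 fold change 1.13 ± 0.20, edgeR, adjusted p = 0.00021). In the NV female, 43 of its 85 chosen UMIs lay in the 2 top spots. The remaining 20 spots had 297 CPM, below the other spots of that section. Aldh1a1, a retinaldehyde dehydrogenase, was higher by 1.06 on the log2 scale, and Cckar, Cldn10, Lypd2, Pon1 and Slc16a11 by 1.74 to 2.98. Of the 6 members tested without a call, Por came nearest (0.49 ± 0.15, adjusted p = 0.055) and hands electrons to P450 enzymes. Others were Cyp2b10 (0.16), Itm2a (0.29), Nupr1 (0.44) and Retnla (-0.39). Cyp2b10, although a P450 listed with club cells, had 321, 304, 804 and 279 CPM in the chosen spots and 294, 214, 741 and 277 CPM in the other spots.

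**Figure D2:**
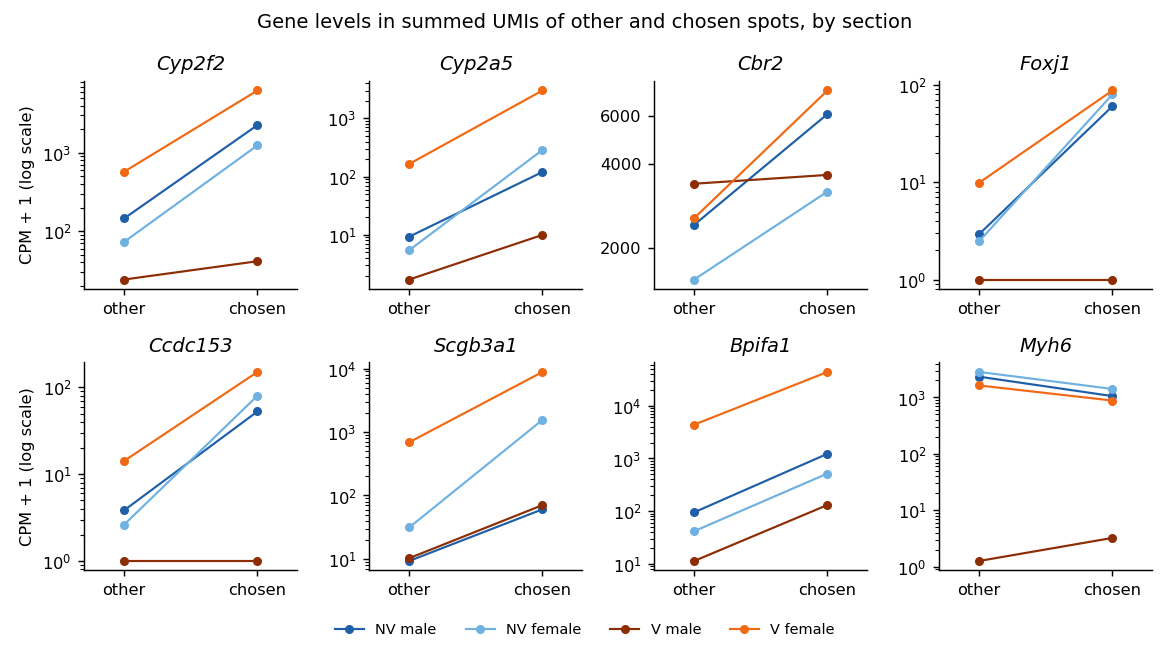
Levels of 8 genes (CPM + 1, log scale) in the summed UMIs of the other spots and of the chosen spots of each section, each line being 1 section. Cyp2f2, Cyp2a5, Scgb3a1 and Bpifa1 were higher in 4 of 4 sections. Of their UMIs in the chosen NV female spots, 197 of 204, 46 of 47, 242 of 255 and 75 of 85 lay in 2 spots. Foxj1 and Ccdc153 were higher in 3 sections and had 0 UMIs in the V male. Cbr2 was nearly level in the V male, and the cardiac gene Myh6 fell in 3 sections and had 1 UMI in the chosen V male spots.

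The chosen spots also carried the transcripts of ciliated cells, the usual neighbours of club cells. Of 18 ciliated cell genes, 15 were tested, 13 were higher and 0 lower, with a median log2 fold change of 3.33, which exceeded the median of the club cell genes. Genes such as Foxj1, Ccdc153 and Tmem212 passed the filter on low counts only with their chosen sums, where they were high. These counts and this median are therefore partly set by the filter. Without the V male, 14 of 15 were higher, without the V female 4 of 7, and without the 2 top NV female spots 8 of 10. Foxj1 had 59.5, 79.1, 0 and 86.8 CPM in the chosen spots and 1.93, 1.48, 0 and 8.89 CPM in the other spots (log2 fold change 4.06 ± 0.33, edgeR, adjusted p = 5.2e-10). Its level was higher in the chosen spots of 3 sections, where few spots carried it: 23.1% (NV male), 13.6% (NV female) and 60.4% (V female) of chosen spots had a UMI, against 2.16%, 2.42% and 12.1% of other spots and 0%, 0% and 29.2% of spots rich in cardiac transcripts at higher depth, and the 2 top spots held 12 of 13 NV female UMIs and 19 of 31 NV male UMIs. Without the 2 top NV female spots, the log2 fold change was 3.70 ± 0.33. Foxj1 was at 0 of 446337 UMIs in the chosen V male spots, which allows up to 6.72 CPM. Dnah5, a heavy chain of the outer dynein arm that moves cilia, had 5.76, 24.3, 0 and 126 CPM against 0.909, 0.148, 0 and 7.31 CPM. Its NV levels rested on few molecules. The 2 top NV female spots held 4 UMIs and the remaining 20 held 0. The top 2 NV male spots held 2 UMIs and the remaining 37 held 1. Ccdc153, Fam183b and Tmem212 were higher by 3.92, 4.08 and 4.0 on the log2 scale. Tppp3 (0.34) and Mlf1 (0.47) were tested without a call. Among the 15 genes at 10 CPM or above with the largest rise, Efcab10 (4.40), Sntn (4.21), which encodes a protein of the ciliary tip, Meig1 (4.21) and Gm19935 (4.2) ranked just behind Cyp2a5, and Sult1d1 (4.09), a sulfotransferase, and AU040972 (3.96) ranked between the ciliated genes.

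Promoter sequence offers a view of the ciliated and club cell genes that the rule did not use. RFX factors work with FOXJ1 on cilia genes and bind X-boxes that contain the letters GTTGCC, which were counted on both strands in the 250 bases before each gene's start in RefSeq annotation. The letters were found in 10.4% of 32851 promoters in all and in 12.6% of 10315 promoters of the genes tested. They were in 7 of 11 promoters of the ciliated genes higher in the chosen spots, in 65 of 265 promoters (24.5%) of all higher genes, in 27 of 178 (15.2%) of lower genes and in 0 of 14 of the club cell genes that were higher. This motif was singled out from 11 after the shares had been seen and no test was made. The promoters of Fam183b (chr11:58801961-58802210, minus strand) and Ccdc153 (chr9:44240427-44240676, plus strand), each lying directly before a ciliated gene described above, are shown beside that of Cyp2f2 (chr7:27119705-27119954, plus strand), which has no such match. Coordinates are in GRCm38.p6, sequences run 5′ to 3′ towards the gene, and capitals mark GTTGCC or its reverse complement.
Fam183b: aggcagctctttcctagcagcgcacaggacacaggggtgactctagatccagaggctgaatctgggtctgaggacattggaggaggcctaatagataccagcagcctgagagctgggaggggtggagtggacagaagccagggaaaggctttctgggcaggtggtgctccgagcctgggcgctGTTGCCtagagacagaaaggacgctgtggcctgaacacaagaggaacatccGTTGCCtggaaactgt
Ccdc153: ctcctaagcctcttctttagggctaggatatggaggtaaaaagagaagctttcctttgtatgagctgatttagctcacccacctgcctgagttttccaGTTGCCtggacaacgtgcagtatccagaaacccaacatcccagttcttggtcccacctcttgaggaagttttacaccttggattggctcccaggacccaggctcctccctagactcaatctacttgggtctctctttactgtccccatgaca
Cyp2f2: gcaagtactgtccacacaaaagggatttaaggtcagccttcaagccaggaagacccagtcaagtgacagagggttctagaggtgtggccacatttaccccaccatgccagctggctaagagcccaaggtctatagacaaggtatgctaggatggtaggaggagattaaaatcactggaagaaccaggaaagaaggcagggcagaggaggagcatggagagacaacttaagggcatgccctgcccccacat

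Secreted defence proteins formed a further group. Of 12 listed genes, 11 were tested, 7 were higher and 1 was lower (median log2 fold change 3.26). Without the V female, 6 of 10 were higher, and without the 2 top NV female spots 7 of 11. Bpifa1, a lipid-binding protein of the airway surface, had 1227, 517, 130 and 43940.3 CPM in the chosen spots and 94.3, 40.7, 10.3 and 4383 CPM in the other spots (log2 fold change 3.57 ± 0.17, edgeR, adjusted p = 7.1e-15). It was higher in 4 of 4 sections, although its level differed widely between them. In the NV female, 75 of its 85 chosen UMIs lay in the 2 top spots, and the remaining 20 spots had 70.6 CPM. In the V male, most of its chosen UMIs likewise lay in the 2 top spots. Scgb3a1, a secretoglobin that the rule did not use, had 59.5, 1552, 69.5 and 8838 CPM against 8.29, 30.3, 9.28 and 688 CPM (3.96 ± 0.28). Reg3g (3.82), an antibacterial lectin, Bpifb1 (3.67), Pigr (3.35), the receptor that carries polymeric antibodies across epithelium, Ltf (3.26), which encodes lactoferrin, and Wfdc2 (1.07) were also higher. Slpi, a protease inhibitor, was lower in 4 of 4 sections, with 36.5, 42.6, 40.3 and 34.1 CPM in the chosen spots and 56.9, 55.6, 53.9 and 57.7 CPM elsewhere (log2 fold change -0.62 ± 0.17, edgeR, adjusted p = 0.027).

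Goblet and basal cell genes were mostly too low to test in all sections. Of 13 goblet and mucous genes, 6 were tested and 5 were higher, among them the mucins Muc5b (3.83) and Muc4 (2.89). Muc5ac, the mucin of goblet cells proper, was counted at 0 to 6.09 CPM in the chosen spots, and Agr2 at 104 CPM in the V female and 0 in the other 3 sections. Of 8 basal cell genes, 2 were tested and 0 called, and with the NV male and V female alone 5 of 6 were higher. Krt5, the keratin of basal cells, had 22.1 CPM in the chosen V female spots against 3.27 CPM in the other spots there, and 0 in the chosen spots of the other 3 sections. The summed basal list was 8.67 times higher in the chosen than in the other spots of the V female and 1.29 to 1.74 times in the other sections.

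Enzymes that handle inhaled chemicals were unevenly raised. Of 21 genes of xenobiotic oxidation, 20 were tested, 5 were higher and 2 lower. Besides Cyp2a5 and Cyp2f2, among others, Cyp2s1 rose by 2.09 ± 0.26 and the aldehyde oxidase Aox3 by 1.11 ± 0.20 on the log2 scale, whereas Cyp2e1 fell by 0.85 and Ephx2, a soluble epoxide hydrolase, fell by 1.15. Cyp1a1, the P450 induced through the aryl hydrocarbon receptor, had 1.92, 0, 107.5 and 1.12 CPM in the chosen spots and 2.73, 2.22, 117 and 4.96 CPM in the other spots. Of these 8 sums, both V male sums were above 100 CPM and the others below 5 CPM. Of 16 aldehyde and carbonyl genes, 15 were tested and 7 were higher, led by Adh7 (3.25 ± 0.27) and Aldh3a1 (2.76 ± 0.39). Of 20 glutathione genes, 18 were tested and 5 were higher, with Gsto1 at 142, 158, 98.6 and 1679 CPM against 59.9, 66.0, 97.8 and 226 CPM (1.55 ± 0.26, edgeR, adjusted p = 0.00016). Of 19 Nrf2 target and stress genes, 18 were tested and 4 were higher. The glutathione peroxidase Gpx2 (3.20 ± 0.33) stood above Gclc, Txnrd1 and Prdx6 (0.51 to 0.55). Without the V female, the calls among aldehyde, glutathione and Nrf2 genes were 4, 2 and 1.

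Of 14 epithelial transcription factors, 4 were higher in the chosen spots. Sox2, a factor of proximal airway epithelium, had 11.5, 6.09, 0 and 70.4 CPM against 1.02, 0.148, 0 and 5.56 CPM (log2 fold change 3.69 ± 0.40, edgeR, adjusted p = 2.4e-07). In the chosen NV female spots, Sox2 stood at the lowest nonzero level that could be counted there. Foxa1 (1.46), Elf3 (1.33) and Ehf (1.29) rose less than Sox2. Nkx2-1, which marks airway and alveolar epithelium alike, had 119, 85.2, 173 and 79.3 CPM in the chosen spots and 133, 100.5, 153 and 86.9 CPM in the other spots (-0.06 ± 0.13, adjusted p = 0.95). None of the 4 were called without the V female, where 12 genes of this list were tested. Of 12 Notch pathway genes, all tested, 0 were called. Of 13 junction and keratin genes, 11 were tested and 6 were higher, by 0.52 to 0.89. Cxcl17, a mucosal chemokine, was the only one of 9 tested cytokines and chemokines that was called, at 48.0, 85.2, 17.9 and 119 CPM against 6.13, 8.43, 11.2 and 17.3 CPM (2.58 ± 0.25, edgeR, adjusted p = 1.7e-08). Clic6, a chloride channel protein, rose by 2.92 among 11 tested genes of ion and water transport, of which 2 were called.

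Markers of other tissue moved with the choice of spots. All 9 cardiac muscle genes were tested, 8 were lower and the median log2 fold change was -1.0. The summed cardiac list was at 5625, 5782, 26.9 and 3738 CPM in the chosen spots and 12106, 12789.7, 22.2 and 7252 CPM in the other spots. Mouse pulmonary veins have a sleeve of cardiac muscle, and the V male section held almost none of its transcripts. Myl7, an atrial myosin light chain, had 1603, 1607, 2.24 and 943 CPM against 3715, 3945, 1.94 and 2041 CPM (-1.20 ± 0.15, edgeR, adjusted p = 2.3e-06). Of 8 brown fat genes, 5 were tested and 4 were lower, and Car3, a carbonic anhydrase of fat and muscle, fell by 1.38. Eno1 (-1.75 ± 0.26) was among the genes with the largest falls at 10 CPM or above. It has a near-identical copy in the mouse genome, so its counts are uncertain.

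Lung parenchyma genes were not called, with 0 of 12 alveolar type 2, 0 of 12 alveolar type 1 and 0 of 12 capillary genes past the thresholds. Their summed levels went different ways by section: the alveolar type 2 list stood at 0.819 times the other spots in the NV male and 0.559 times in the V female, but 1.28 and 1.21 times in the NV female and V male. Of 12 macrophage genes, 1 was higher and 1 lower. The mitochondrially encoded genes were lower by a median of 0.49, with 2 of 13 called, and without the V male 12 of 13 were called lower. The V male mitochondrial sum was 1.09 times that of its other spots, against 0.540 to 0.662 times in the other 3 sections. The part of the cardiac and mitochondrial levels in the other differences was not tested.

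**Figure D3:**
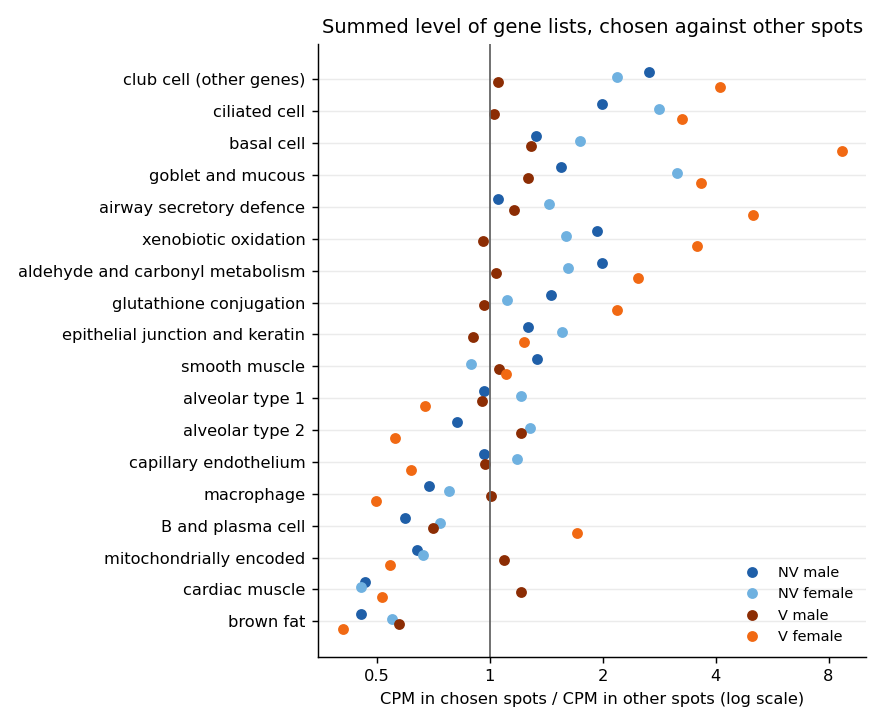
Summed CPM of 18 gene lists in the chosen spots divided by that in the other spots of the same section (log scale, 1 point a section, vertical line at 1). Club, ciliated, goblet, basal and defence lists lie above 1 in all 4 sections, at 1.03 to 1.29 in the V male. The NV male defence list is at 1.05, and the basal list reaches 8.67 in the V female. The cardiac list lies at 0.452 to 0.515 in the 3 sections other than the V male, and most V male points lie near 1.

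How sharply airway genes ended at the edge of the chosen spots differed between sections. Cyp2f2 in the NV male fell from 2254 CPM in the chosen spots to 242 CPM in the next 5% by secretoglobin share, and to 120.1 CPM in the lowest band of the ranking (390 spots). In the V female it fell more slowly, from 6231 to 2213 CPM in the next 5%, 846 in the 10-25% band and 365 CPM in the lowest band. Spots rich in cardiac transcripts, a tissue that should not express Cyp2f2, still had 56.8 (NV male), 39.7 (NV female) and 585 CPM (V female). The V male had no such tissue to compare, as its spots ranked highest for cardiac transcripts held 227 CPM of the cardiac list, against 32620 to 46927 CPM in the other sections. After each spot was thinned to 2000 UMIs, Cyp2f2 was seen in 76.9% of chosen NV male spots (30 of 39, exact 95% binomial interval 60.7% to 88.9%, counting error only) and 96.9% of chosen V female spots (93 of 96, 91.1% to 99.4%), compared to 28.6% and 60.9% of other spots and 10.3% and 53.1% of cardiac-rich spots. In the V female, the share in the other spots was therefore close to that in cardiac-rich spots. The same shares were 22.7% of chosen and 13.0% of other spots in the NV female, and 4.05% and 5.51% in the V male, where the chosen spots did not stand above the rest. Unthinned, the shares of chosen spots with a Cyp2f2 UMI were 97.4%, 36.4%, 12.2% and 99.0% at the median depths given above.

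**Figure D4:**
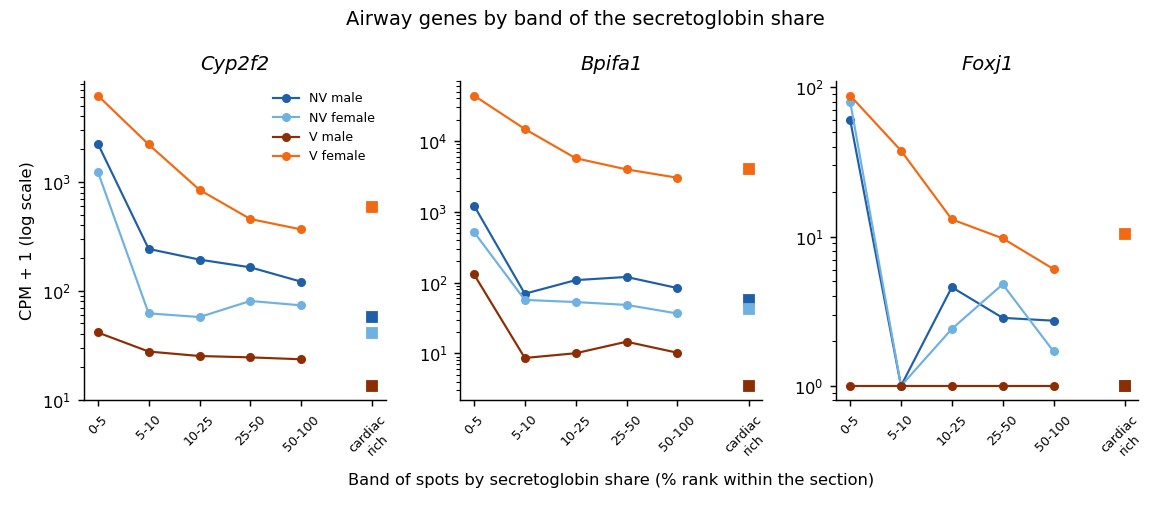
Level of Cyp2f2, Bpifa1 and Foxj1 (CPM + 1, log scale) in bands of spots ranked by secretoglobin share within each section, with squares for the other spots ranked highest for cardiac transcripts, which in the V male held only 227 CPM of the cardiac list. Foxj1 drops to 0 in the 5-10% band of the NV male and NV female, Cyp2f2 and Bpifa1 decline gradually in the V female, and the V male stays low in every band.

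The chosen spots of the V female were not alike. Ranked by Scgb3a2 share and divided into 4 sets of 24 spots, the set richest in Scgb3a2 had 13813 CPM of it and the poorest 735 CPM, by construction. Bpifa1 went down with it from 66195 through 44014 and 9292 to 2875 CPM, Scgb3a1 from 14331 through 7957 and 1089.6 to 471 CPM, and Cyp2f2 from 8658 through 5950.1 and 3153 to 1279 CPM. Scgb1a1 did not: its 4 values were 75911, 39183, 128778 and 55973 CPM, with the highest in set 3. Hp was also highest there, at 1349 CPM against 347, 304 and 663 CPM in sets 1, 2 and 4. Sftpc rose in the opposite direction, from 5498 to 25237 CPM.

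Single spots showed both patterns. The V female spot with the highest secretoglobin share (31.9%, 70311 UMIs) had 314986 CPM of Scgb1a1, 2361 CPM of Hp, 2859 CPM of Bpifa1 and 0 UMIs of Krt5, whereas the chosen V female spots other than the top 2 had on average 63737 CPM of Scgb1a1, 467 CPM of Hp and 45515 CPM of Bpifa1. The highest NV male spot (40.1%, 73184 UMIs) had 395797 CPM of Scgb1a1, 2651 CPM of Hp and 41.0 CPM of Bpifa1, which was 3 UMIs. Scgb1a1 and Bpifa1 thus peaked in different spots in both sections. Basal and antibody genes lay in the V female sets with most Scgb3a2: Krt5 had 29.0, 30.9, 0 and 0 CPM from set 1 to set 4, Jchain, the joining chain of polymeric IgA and IgM, 341, 412, 22.7 and 19.2 CPM, and Igha, the heavy chain of IgA, 527, 1208, 148 and 101 CPM. Median depth fell from 52952.5 UMIs in set 1 to 7985.5 UMIs in set 4, so depth moved with these levels and its part was not tested.

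Across the 96 V female spots thinned to 2000 UMIs each, Scgb3a2 had a Spearman correlation of 0.84 with Cyp2f2, 0.84 with Bpifa1 and -0.85 with Sftpc, while Scgb1a1 had 0.030 with Cyp2f2, 0.045 with Scgb3a2 and 0.34 with Hp. Across the 39 NV male spots, Scgb1a1 had 0.70 with Cyp2f2 and 0.63 with Scgb3a2. The spots of a section share 1 library, Scgb1a1 and Scgb3a2 also selected them, and Scgb3a2 had a median of 6.5 UMIs in the thinned V female spots and 2 in the NV male spots, so these coefficients are descriptions without a test. In the NV male, the set of 10 spots with most Scgb3a2 had 200142 CPM of Scgb1a1, 4072 CPM of Cyp2f2 and 2759 CPM of Bpifa1, and the next set 51537, 1343 and 34.2 CPM.

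**Figure D5:**
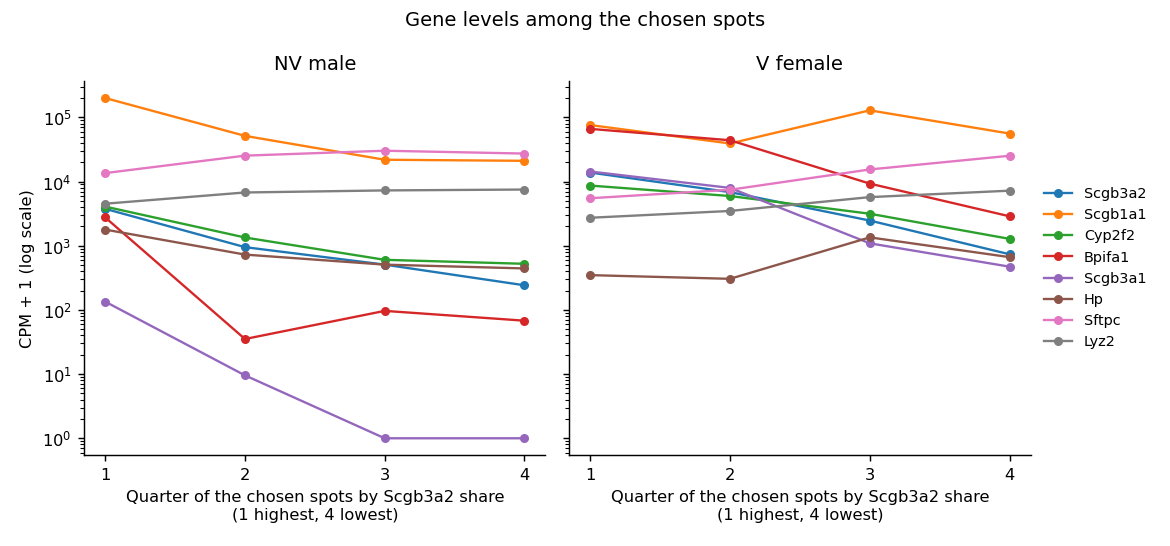
Level of 8 genes (CPM + 1, log scale) in the chosen spots of the NV male (39 spots) and V female (96 spots), divided into 4 sets by Scgb3a2 share from highest (1) to lowest (4). In the V female, Bpifa1, Scgb3a1 and Cyp2f2 decline with Scgb3a2 while Scgb1a1 and Hp are highest in set 3, and Sftpc and Lyz2 rise in both sections.

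The next comparison asked whether the chosen spots differed between V and NV mice. Of 7689 genes tested with edgeR on the 4 sums, 0 were called in either direction (0%), 133 had an unadjusted p under 0.05, and DESeq2 called 0 with 31 at an unadjusted p under 0.05. Without the V male, 0 of 9014 were called, and without the V female, 6 (0.0717%) were higher and 34 (0.406%) lower in V among 8365. The common biological coefficient of variation was 0.349 between these sums, against 0.128 within sections. The 2 V sections often stood on opposite sides of both NV sections. Of 50 genes of the club, ciliated, oxidation, glutathione and defence lists with at least 50 CPM on average, the V female was above both NV sections in 35, while the V male was below both in 27.

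Airway genes overlapped between groups at these levels. Cyp2f2 had 2254 and 1242 CPM in the chosen NV spots and 40.3 and 6231 CPM in the V spots, in which the lowest and the highest value were both V (V minus NV log2 difference 0.95 ± 1.69, edgeR, adjusted p = 1). Bpifa1 had 1227 and 517 CPM in NV and 130 and 43940.3 CPM in V (4.76 ± 2.17, adjusted p = 1), and Reg3g 97.9 and 48.7 CPM in NV and 17.9 and 3009 CPM in V (4.43 ± 1.95). Without the V male the differences were 1.93, 5.73 and 5.34, and none passed the threshold. Of the 50 genes, 39 overlapped between groups and 11 did not, of which 9 were above and 2 below in V. Over all 7689 genes, 13.6% had both V values above both NV values and 13.1% had both below. Among the 9 were Selenbp1, at 635 and 505 CPM in NV and 1158 and 808 CPM in V (0.75 ± 0.34), Cyp4b1, a P450 of club and alveolar cells, at 470.4 and 396 CPM in NV and 1051 and 632 CPM in V (0.91 ± 0.35), Aox3 at 82.6 and 73.0 CPM in NV and 128 and 209 CPM in V (1.14 ± 0.43), and Aldh1a1 at 1179 and 889 CPM in NV and 1189.7 and 2304 CPM in V (0.79 ± 0.48). Their unadjusted p-values were 0.069, 0.041, 0.039 and 0.16 by edgeR and their adjusted p was 1. The other V male spots had 1069 (Selenbp1), 1031 (Cyp4b1), 95.6 (Aox3) and 1252 CPM (Aldh1a1), near the chosen V male level except for Aox3. Airway epithelium was not borne out for most chosen V male spots, so these values do not compare airway with airway. The 2 lower in V were Retnla (-1.79 ± 1.26), at 134 and 408 CPM in NV and 2.24 and 128 CPM in V, and Mgst3 (-0.18 ± 0.33), also without a call.

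The genes with the smallest p were mostly not airway genes. Lower in V were Il10ra, the receptor chain for interleukin 10, at 44.2 and 48.7 CPM in NV and 6.72 and 5.99 CPM in V (log2 difference -2.82 ± 0.47, edgeR, unadjusted p = 0.0010), and H2-DMb2 at 69.1 and 60.9 CPM against 15.7 and 16.8 CPM (-1.96 ± 0.36). The antibody genes Ighm and Iglc2 and the immediate early gene Nr4a1 had differences of -2.22, -2.80 and -2.64. Higher in V were Igha, at 63.4 and 36.5 CPM in NV and 177 and 640 CPM in V (3.03 ± 0.78, unadjusted p = 0.0084), Malat1 (1.75), Gja4 (1.53), Glg1 (2.31) and Pdzd8 (1.94). The groups did not overlap for any of these 10 genes, which were picked for their small p, and their adjusted p was 1. Igha also had 73.3 and 42.0 CPM in the other NV spots and 296 and 184 CPM in the other V spots, and Ighm 836 and 1094 CPM against 114 and 220.2 CPM. Il10ra had 32.7 and 21.3 CPM in the other NV spots and 16.3 and 13.1 CPM in the other V spots. H2-DMb2 had 54.5 and 42.8 CPM against 23.9 and 29.4 CPM. The groups stood apart in the same direction in the other spots for the rest of the 10 genes too. These differences were thus present outside the chosen spots.

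The last comparison asked whether the contrast of chosen with other spots differed between V and NV, which removes what a whole section shares. Of 14173 genes, 6 had a larger contrast in V (0.0423%) and 4 a smaller one (0.0282%) by edgeR, while DESeq2 called 0 with 83 at an unadjusted p under 0.05. Jchain was lower in the chosen than in the other spots of both NV sections (88.3 against 227 CPM and 85.2 against 153 CPM) and of the V male (38.1 against 58.5 CPM), and higher in the V female (281 against 49.0 CPM). Its difference of contrasts was 2.74 ± 0.32 on the log2 scale (edgeR, adjusted p = 4.8e-14), 3.73 without the V male and 0.60 without the V female (adjusted p = 1). The 2 V sections thus went opposite ways for this gene, a spread within the V group that the SE of 0.32 does not reflect. Without the V male, 67 genes (0.456%) had a larger and 60 (0.408%) a smaller contrast, and without the V female 5 (0.0357%) and 14 (0.1%). Cyp2f2 had the smaller contrast in V (-1.40 ± 0.34, edgeR, adjusted p = 0.049), which was -0.56 without the V male (adjusted p = 0.60), -3.21 without the V female (adjusted p = 6.5e-16), -1.49 without the NV female and -1.48 without the NV male (adjusted p = 1 and 0.97), and -0.051 without the 2 top NV female spots (adjusted p = 1). With the replicate block it was -1.58 (adjusted p = 0.093). Its size and call thus depended on which sections and spots entered.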

How the data were processed

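Cryosections of 2 V and 2 NV mice were profiled on Visium slides. The submitters' processing notes name Space Ranger, Seurat 4.0.3 and mm10. The authors deposited raw UMI counts per gene and tissue spot for 32285 genes, and the normalization of their methods is not part of these counts. Spots at 2000 UMIs or more were ranked by the summed share of Scgb1a1 and Scgb3a2, and ties were broken by marker UMIs. Both genes stayed in library sizes and out of the calls. CPM are UMIs per 1e6 UMIs of the summed spots, so a high secretoglobin share lowers the CPM of all other genes there. Fold changes come from edgeR 4.0.16 in R 4.3.3 (TMM, filterByExpr, quasi-likelihood test with section as a block for chosen against other spots), with standard errors derived from the F statistic. edgeR was also run on simulated counts with 200 genes changed by 2 on the log2 scale and a dispersion of 0.05. It recovered 86.0% of them in the chosen against other spots design (12834 genes) and 69.0% in the V against NV design (7213 genes). In the design for the difference of contrasts (13968 genes) it recovered 22.0%. The real V against NV sums had a coefficient of variation of 0.349, a larger dispersion than simulated, so the 69.0% does not carry over.

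DESeq2 1.42.0, other shares of spots, other scores and UMI minimums, thinning, other scalings, no filter and each section left out were alternatives. A further 2, chosen after seeing the data, used the NV male and V female alone and left out the NV female spots above 10%. The spots and the 35 gene lists were chosen with earlier results of these data known. Genes are named as the 15 highest and 10 lowest called at a mean of 10 CPM or more, up to 4 per list with calls, list members needed for counts, for V against NV the 5 smallest p-values each way and list genes of at least 50 CPM, and for the difference of contrasts all called genes. Promoter sequences are from RefSeq (GRCm38.p6), and 11 motifs were counted. Positions of spots and images were not analysed here, and some genes that these rules name are not reported here. Intervals cover counting error only. Python 3.11.15, pandas 2.3.3, NumPy 2.4.6 and SciPy 1.17.1 were used.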

Additional observations from a re-analysis of the deposited data

Results flagged for a closer look

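The contrast of chosen with other spots differed between V and NV, by the edgeR test of that difference, for 10 genes. Larger in V were Jchain (2.74 on the log2 scale), Lgr6 (2.68), Kcnq1ot1 (2.43), Iglc1 (1.88), Perp (1.72) and Dcn (1.49). Smaller in V were Cyp2f2 (-1.40), Bpifb1 (-2.35), Muc5b (-2.78) and Mcpt4 (-3.59). The V male had 0 UMIs of Muc5b and of Mcpt4 in both classes of spots, so their V contrast came from the V female alone. Lgr6, a receptor of the R-spondin family, had 9.60, 24.3, 0 and 84.6 CPM in the chosen spots (NV male, NV female, V male, V female), against 33.2, 33.1, 0.795 and 31.5 CPM in the other spots. Iglc1, an antibody light chain, had 32.6, 36.5, 42.6 and 135 CPM against 49.2, 65.8, 33.3 and 47.0 CPM, and Dcn, a collagen-binding proteoglycan, 215, 365, 31.4 and 944 CPM against 509, 699, 39.8 and 618 CPM. In these 3 genes the V female had the highest chosen level of the 4 sections. For Lgr6 the V male held 0 UMIs in the chosen and 9 in the other spots. The summed B and plasma cell list, with all 9 genes counted in each class of spots, stood at 1.71 times the other spots in the V female and 0.595 to 0.736 times in the other sections, and its part in the Jchain and Iglc1 values was not tested.

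All 6 genes larger in V lost the call without the V female, with differences of 0.60 (Jchain), -3.56 (Lgr6), 1.99 (Kcnq1ot1), 1.03 (Iglc1), 1.06 (Perp) and 0.79 (Dcn) and adjusted p of 0.79 to 1. With the replicate block, Lgr6, Kcnq1ot1, Perp, Dcn and Cyp2f2 lost it too (adjusted p of 0.093 to 1). Of the 10 genes, 0 were called by DESeq2.

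Of the 3 airway genes with a smaller contrast in V, Bpifb1 had 38 of 38 and Muc5b 21 of 21 chosen NV female UMIs in the 2 top spots of that section. Without these spots the differences were -0.051 for Cyp2f2, 0.060 for Bpifb1 and -0.22 for Muc5b, each with an adjusted p of 1 by edgeR. With the whole NV female left out they were -1.49, -1.30 and -0.86. Cyp2f2 had -3.21 without the V female, in a fit that kept these 2 spots. The part of these 2 spots in the Cyp2f2 value was not tested further. Mcpt4, a mast cell protease, had 25 of 25 UMIs in the remaining 20 NV female spots and had a difference of -3.68 without the top 2 (adjusted p = 0.0022), but -1.26 without the NV female (adjusted p = 1) and -1.11 by DESeq2 (unadjusted p = 0.69). Of the 25 UMIs, 23 lay in the 6 chosen NV female spots with the highest Scgb3a2 share. It had 152 CPM in the chosen NV female spots against 13.6 CPM elsewhere there, and at most 7.11 CPM in the chosen spots of the other sections.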

How the results depend on the processing

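Both the sections and the processing moved the counts of called genes. Leaving out 1 section gave 41 (V female out) to 567 (V male out) genes higher and 97 to 358 lower in the chosen spots, 0 to 6 higher and 0 to 34 lower for V against NV (40 in all without the V female), and 1 to 67 larger and 0 to 60 smaller for the difference of contrasts. Over these, Lgr6 ranged from -3.56 (V female out, with 0 chosen and 9 other UMIs in the V male) to 3.12. Each fit without a V section held 1 V mouse.

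For chosen against other spots (334 higher, 239 lower), 10% of spots gave 175 and 114, Scgb3a2 alone 66 lower, the same threshold in all sections 793 higher, thinning to 2000 UMIs per spot 27 and 15, the DESeq2 Wald test 176 and 82, no filter on low counts 821 and 450, and the NV male and V female alone 852 and 440. For V against NV (0 and 0), no filter gave 37 and 20. For the difference of contrasts (6 and 4), 2% of spots gave 2 larger, 10% gave 43 larger, a minimum of 5000 UMIs 3 and 1, Scgb3a2 alone 12 larger, thinning 2 smaller, leaving the 5-25% band out of the other spots 14 larger, the DESeq2 Wald test 0 and 0, and leaving out the NV female spots above 10% gave 1 smaller, with Bpifb1 reversed to 0.060. The cause of these shifts was not tested. Thinning also left fewer genes to test for chosen against other spots, 7819 against 13143. The same threshold left only the NV male and V female, so the V comparisons could not be fitted.

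The replicate numbers (1 for males, 2 for females) are shared by the groups, and same-numbered sections deviated together with r = 0.117 over 9995 genes. With 2 sections a group, deviations from the group mean are exact opposites. Both same-numbered pairs therefore give this 1 value by construction. With the replicate block, V against NV gave 0 and 0 and the difference of contrasts 2 larger and 5 smaller.

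For named genes, 1193 of 1387 values of chosen against other spots over 19 alternatives kept direction and call, 194 lost the call and 0 reversed. For the difference of contrasts, 107 of 179 kept both, 70 lost the call and 2 reversed. Genes that an alternative did not test are left out of these values. For chosen against other spots, most calls were lost with thinning (31 lost, 18 kept), DESeq2 (31 lost, 45 kept) and the V female left out (30 lost, 32 kept). The chosen spots held 164311 (NV female), 446337 (V male), 520864 (NV male) and 2672124 UMIs (V female), so that a gene at 0 allows up to 18.3 CPM in the first and 1.12 CPM in the last.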
